A study of Mus musculus with 8 samples.

Results

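The genes described here are 10 members and targets of the YAP and TAZ pathway, out of 56923 genes counted in thymic epithelial cells (TECs). They were chosen by symbol, as Hippo pathway effectors and well-known target genes, and matched to the counts by Ensembl identifier. These genes and the wider lists below were chosen with earlier results of these data known. Their counts beside the shares of all genes are therefore descriptions and not tests. They comprise the effectors *Yap1* and *Wwtr1* (the gene of TAZ), the DNA-binding partner *Tead1*, the regulators *Lats2*, *Ajuba* and *Amotl2*, and the targets *Ccn1*, *Ccn2*, *Ankrd1* and *Crim1*. All 10 passed the filter on low counts.

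Bulk RNA was profiled in 8 libraries, 2 per group, from wild-type mice with no treatment listed, and every TEC came from E16.5 thymi. *In vivo* TECs were digested with TrypLE, sorted for EpCAM and lysed directly. 2D-cultured TECs grew on laminin-coated plastic and were lysed as a confluent monolayer after 3 days, and organoids grew from sorted TECs in growth factor-reduced Matrigel for 3 days (D3) or 7 days (D7) before being freed in cold PBS. The culture medium held FGF7, and for organoids thiazovivin, an inhibitor of the ROCK kinases that drive actomyosin contraction, was present over the first days. The sorted cells were collected in thiazovivin as well, and its presence in 2D wells is not given in the sources used here. The labels call the replicates biological, and they do not say which animals gave each library, so p-values measure the spread between these libraries. With 2 libraries against 2, an exact two-sided permutation test of a single gene cannot go below p = 0.333, and the tests below therefore borrow their estimate of spread across all genes.

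YAP and TAZ are transcriptional co-activators that move between cytoplasm and nucleus. When the Hippo kinases MST and LATS are active they phosphorylate YAP and TAZ, which are then held in the cytoplasm or degraded. When these kinases are inactive, or when cells spread on a stiff surface under actomyosin tension, YAP and TAZ enter the nucleus, bind TEAD factors and turn on genes such as *Ccn1*, *Ccn2* and *Ankrd1*. *Lats2* and *Amotl2* are both inhibitors of the pathway and targets of it.

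Total counts on genes were between 5084715 and 7612532 per library, so 3 counts, taken as the floor of detection, were worth between 0.371 and 0.591 CPM, the count relative to a library size that was itself scaled by TMM factors. The TEC label was checked against 10 epithelial genes, which all had counts in all 8 libraries, though few for *Psmb11* in 2D and D3. Their summed level was 6904 to 7326 CPM *in vivo*, 7947 to 8617 CPM in 2D, 1728 to 1886 CPM in D3 organoids and 2186 to 2292 CPM in D7 organoids. In 2D against *in vivo* TECs 6 of the 10 rose and 4 fell, beside 19.9% and 21.7% of all genes tested. At D3 2 rose and 6 fell, beside 14.1% and 14.0%, and at D7 1 rose and 7 fell, beside 18.0% and 16.8%. *Cdh1*, which encodes E-cadherin, rose by 1.75 on the log2 scale in 2D (edgeR adjusted p = 2.1e-08), with differences of 0.23 at D3 and 0.30 at D7 that did not pass. *Krt18*, a keratin of simple epithelia, rose by 0.95 in 2D and fell by 2.76 at D3 and 1.83 at D7 (edgeR adjusted p = 2.5e-05, 3.1e-10 and 2.8e-08). *Prss16*, the thymus-specific serine protease of cortical TECs, fell by 7.46 on the log2 scale in 2D against *in vivo* TECs, by 6.07 at D3 and by 2.91 at D7. On the same scale *Foxn1* fell by 5.21 in 2D, 4.75 at D3 and 1.78 at D7, and *Ly75* fell by 3.95, 4.23 and 3.31. Counts of *Psmb11* went from 3006 and 3942 *in vivo* to 3 in each 2D library, 3 and 7 at D3 and 858 and 570 at D7. It was called lower in 2D and at D3, where no fold is given because so few counts were left. At D7 it fell by 2.30 on the log2 scale. *Epcam* rose by 1.95 in 2D, 1.55 at D3 and 1.16 at D7. In bulk RNA, fewer cells of a type and less RNA per cell cannot be told apart, which applies to every level below. Levels were not divided by gene length and are not compared between genes.

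The motif bound by TEAD factors, searched as the letters GGAATG and their complement CATTCC on both strands, was looked up in the 250 bases before the start of the Ensembl canonical transcript of each gene. It was found in 11.6% of the 12546 promoters of tested genes with such a window and in 6 of the 10 genes described here. *Ccn2* held 3 copies, at 98, 33 and 24 bases before the start. *Amotl2* held 2, at 235 and 135 bases before a start that lies inside a longer transcript of the same gene. *Yap1*, *Wwtr1*, *Tead1* and *Ccn1* held 1 each, while *Lats2*, *Ajuba*, *Ankrd1* and *Crim1* had no match in this window. The whole *Lats2* window (chr14:57983717-57983966) also lies inside its gene, and the *Wwtr1* and *Ajuba* windows lie partly inside theirs. A match describes the letters of the window and is not a measured binding site, and the lack of one says nothing about the factor. The windows around the matches are shown for the effectors, for *Tead1* and for the targets *Ccn1* and *Ccn2*, from the GRCm39 genome, 5′ to 3′ on the strand of the gene, with the motif in capitals. They lie at chr9:8004711-8004760 (minus strand) for *Yap1*, chr3:57483440-57483489 (minus) for *Wwtr1*, chr7:112278307-112278356 (plus) for *Tead1*, chr3:145355816-145355865 (minus) for *Ccn1* and chr10:24471213-24471332 (plus) for *Ccn2*, all upstream of the gene.
*Yap1*: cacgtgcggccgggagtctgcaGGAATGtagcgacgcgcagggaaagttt
*Wwtr1*: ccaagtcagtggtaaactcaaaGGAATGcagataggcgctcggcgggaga
*Tead1*: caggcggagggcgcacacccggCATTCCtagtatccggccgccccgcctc
*Ccn1*: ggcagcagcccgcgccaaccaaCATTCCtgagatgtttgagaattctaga
*Ccn2*: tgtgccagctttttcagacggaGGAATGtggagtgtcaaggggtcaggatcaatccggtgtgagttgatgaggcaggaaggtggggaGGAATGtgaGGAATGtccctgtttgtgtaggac

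In 2D-cultured TECs *Ccn1*, *Ccn2* and *Ankrd1* rose over *in vivo* TECs together with *Wwtr1*, *Tead1*, *Lats2* and *Amotl2*, while no change of *Yap1* was called. Of the 10 genes, 7 rose and 0 fell in 2D against *in vivo* TECs by edgeR's quasi-likelihood test with a Benjamini-Hochberg adjusted p of at most 0.05, where 19.9% of all 14504 genes tested rose and 21.7% fell. In D3 organoids against *in vivo* TECs, 4 rose (14.1% of all genes) and 4 fell (14.0% of all genes). In D7 organoids against *in vivo* TECs, 2 rose (18.0% of all genes) and 5 fell (16.8% of all genes). The median log2 fold change of the 10 genes over *in vivo* was 2.31 in 2D, 0.08 in D3 organoids and -0.74 in D7 organoids, beside medians of -0.06, -0.01 and 0.01 over all genes tested.

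Set against organoids, 2D-cultured TECs were higher in 8 genes and lower in 1 at D3, where 19.1% of all genes were higher and 19.3% lower. Against D7 organoids they were higher in 9 genes and lower in 1, where 21.1% of all genes were higher and 24.4% lower. The gene that was lower in 2D in both comparisons was *Crim1*. From D3 to D7, 0 of the 10 genes rose and 3 fell, beside 10.9% and 9.90% of all genes, and the median was -0.50 against 0.06 over all genes. The 6 comparisons share libraries, so their counts are not independent of each other.

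**Figure D1:**
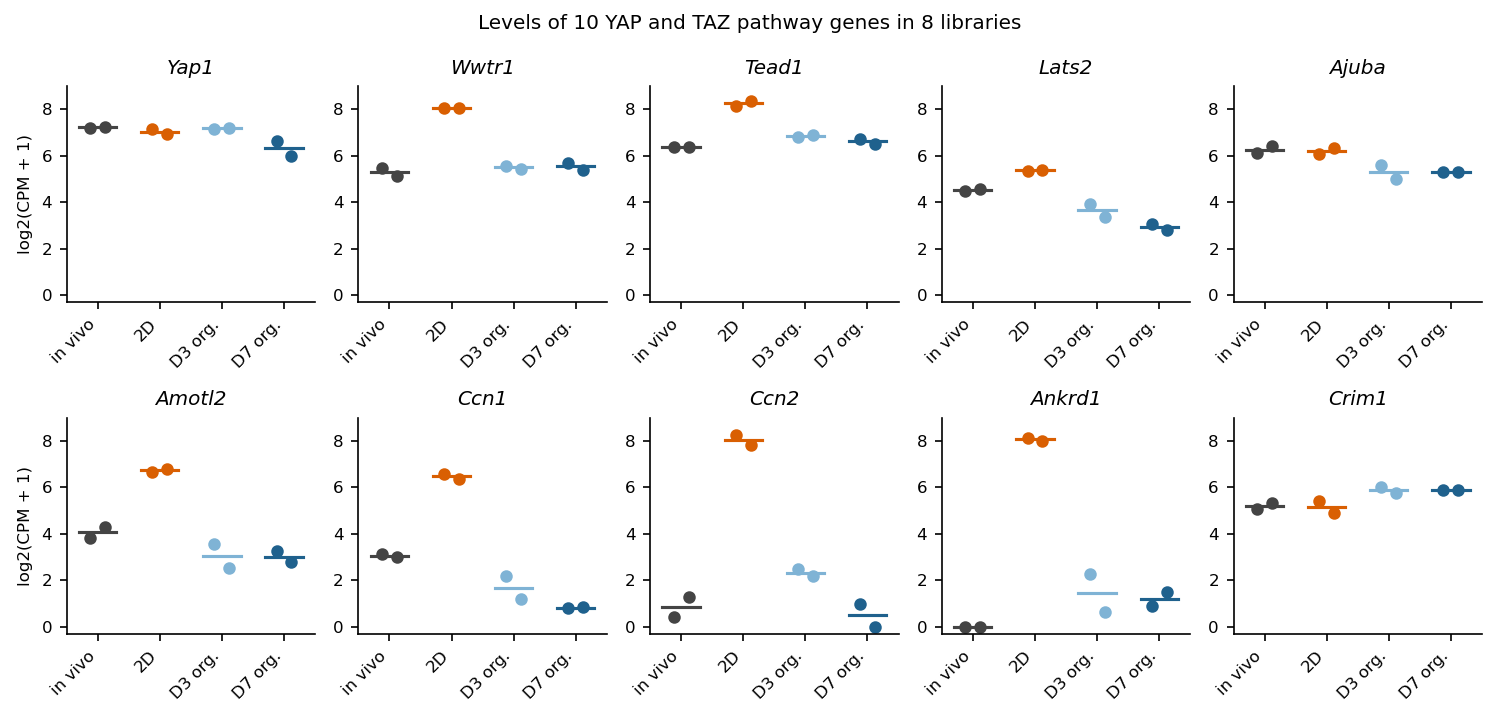
Level of each of the 10 genes, as log2(CPM + 1) on the vertical axis, in *in vivo* TECs, 2D-cultured TECs, D3 organoids and D7 organoids. Each point is 1 of 8 libraries and each line is the mean of 2. *Wwtr1*, *Tead1*, *Lats2*, *Amotl2*, *Ccn1*, *Ccn2* and *Ankrd1* are highest in both 2D libraries, *Yap1* is lowest in D7 organoids, and *Crim1* is higher in organoids than in the other groups.

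*Yap1* (chr9:7932000-8004661, minus strand) encodes YAP. It was at 147 and 148 CPM *in vivo*, 139 and 122 CPM in 2D, 143 and 146 CPM in D3 organoids and 98.7 and 62.5 CPM in D7 organoids. The first 3 groups lay close together and both D7 libraries lay below every other library. Over *in vivo* TECs the log2 fold change was -0.18 (SE 0.19, adjusted p = 0.47 by edgeR) in 2D and -0.03 (SE 0.19, adjusted p = 0.92 by edgeR) in D3 organoids, so no difference was detected there. In D7 organoids *Yap1* fell by 0.87 on the log2 scale against *in vivo* TECs (SE 0.19, edgeR adjusted p = 0.0019) and by 0.84 against D3 organoids (SE 0.19, edgeR adjusted p = 0.005), and it was 0.69 higher in 2D than in D7 organoids (SE 0.19, edgeR adjusted p = 0.0073). These 3 calls rested on D7 replicate 2, without which the values were -0.58 (adjusted p = 0.053), -0.54 (adjusted p = 0.12) and 0.40 (adjusted p = 0.15) by edgeR. The 2D excess over D7 organoids was also lost without 2D replicate 1 (0.59, adjusted p = 0.07 by edgeR) and was 1.06 (adjusted p = 0.00074) without D7 replicate 1.

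*Wwtr1* (chr3:57363067-57483331, minus strand) encodes TAZ, the paralog of YAP, and did not follow *Yap1*. It was at 43.4 and 34.3 CPM *in vivo*, 264 and 262 CPM in 2D, 46.7 and 42.4 CPM in D3 organoids and 50.6 and 41.4 CPM in D7 organoids. Both 2D libraries lay above the 6 others, which overlapped. *Wwtr1* rose 6.79-fold in 2D over *in vivo* TECs (log2 2.76, SE 0.18, edgeR adjusted p = 2.2e-09), and it was 5.91-fold higher in 2D than in D3 organoids and 5.70-fold higher than in D7 organoids. Over *in vivo* the log2 differences were 0.20 (SE 0.18, adjusted p = 0.46 by edgeR) at D3 and 0.25 (SE 0.18, adjusted p = 0.31 by edgeR) at D7.

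*Tead1* (chr7:112278522-112506014, plus strand), one of the genes for the TEAD factors through which YAP and TAZ reach DNA, was highest in 2D as well. It was at 81.4 and 82.7 CPM *in vivo*, 282 and 329 CPM in 2D, 111 and 118 CPM in D3 organoids and 104 and 90.2 CPM in D7 organoids. All cultured libraries lay above both *in vivo* libraries, and both 2D libraries lay above the organoids. *Tead1* rose 3.72-fold in 2D over *in vivo* TECs (log2 1.90, SE 0.16, edgeR adjusted p = 4.4e-08) and was 2.67-fold higher in 2D than in D3 organoids. In D3 organoids it rose by a log2 of 0.48 over *in vivo* (SE 0.16, edgeR adjusted p = 0.03), a call that was lost when either *in vivo* library or either D3 library was left out, with values of 0.47, 0.50, 0.53 and 0.50 and adjusted p between 0.057 and 0.11. At D7 the difference was 0.25 (SE 0.16, adjusted p = 0.25 by edgeR).

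*Lats2* (chr14:57926960-57995845, minus strand), a kinase that phosphorylates YAP and TAZ, was at 21.3 and 22.4 CPM *in vivo*, 39.5 and 41.3 CPM in 2D, 14.3 and 9.33 CPM in D3 organoids and 7.30 and 5.91 CPM in D7 organoids. The 4 groups did not overlap and stood in the order 2D, *in vivo*, D3, D7. *Lats2* rose 1.85-fold in 2D over *in vivo* TECs (log2 0.89, SE 0.25, edgeR adjusted p = 0.0092), fell by 0.89 on the log2 scale at D3 (SE 0.27, edgeR adjusted p = 0.018) and fell by 1.71 at D7 (SE 0.28, edgeR adjusted p = 0.00015). Between D3 and D7, neighbours in that order, the difference of -0.81 (SE 0.29) had an adjusted p of 0.055 by edgeR. Without 2D replicate 2 the rise in 2D was 0.86 (adjusted p = 0.056 by edgeR), and the D3 value was -0.54 (adjusted p = 0.23) without D3 replicate 2 and -0.85 (adjusted p = 0.057) without *in vivo* replicate 2. An overlapping gene model on the same strand, *Gm49361*, had 0 counts in all libraries.

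*Ajuba* (chr14:54804787-54815027, minus strand) encodes a LIM protein that binds LATS kinases and restrains them. Its level was 68.0 and 83.5 CPM *in vivo*, 65.6 and 79.6 CPM in 2D, 47.0 and 31.1 CPM in D3 organoids and 38.0 and 38.2 CPM in D7 organoids. The *in vivo* and 2D libraries overlapped, and all 4 organoid libraries lay below them. *Ajuba* fell 1.95-fold at D3 (log2 -0.96, SE 0.21, edgeR adjusted p = 0.0024) and 1.99-fold at D7 against *in vivo* TECs (log2 -0.99, SE 0.21, edgeR adjusted p = 0.0016), while 2D differed by -0.06 (SE 0.21, adjusted p = 0.84 by edgeR). Without D3 replicate 2, the lower of the D3 pair, the fall at D3 was -0.62 (adjusted p = 0.072 by edgeR) and the 2D excess over D3 organoids went from 0.90 to 0.61 (adjusted p = 0.064).

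*Amotl2* (chr9:102593836-102610617, plus strand) encodes an angiomotin, a junction protein that binds YAP and keeps it out of the nucleus. It was at 13.01 and 18.7 CPM *in vivo*, 99.2 and 110.4 CPM in 2D, 10.6 and 4.74 CPM in D3 organoids and 8.41 and 5.91 CPM in D7 organoids. Both 2D libraries were far above all others, and the organoid libraries lay below both *in vivo* libraries. *Amotl2* rose 6.56-fold in 2D over *in vivo* TECs (log2 2.71, SE 0.29, edgeR adjusted p = 7.6e-07) and was 13.8-fold higher in 2D than in D3 organoids and 14.3-fold higher than in D7 organoids. It fell by 1.08 on the log2 scale at D3 (SE 0.32, edgeR adjusted p = 0.018) and by 1.13 at D7 (SE 0.32, edgeR adjusted p = 0.012). The D3 value was -0.52 (adjusted p = 0.28) without D3 replicate 2, -1.75 (adjusted p = 0.0029) without D3 replicate 1 and -0.78 (adjusted p = 0.15) without *in vivo* replicate 2 by edgeR, and the D7 value was -0.92 (adjusted p = 0.095) without D7 replicate 2 and -0.83 (adjusted p = 0.099) without *in vivo* replicate 2.

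*Ccn1* (chr3:145352720-145355738, minus strand) encodes CYR61, a secreted matrix protein and an immediate target of YAP and TAZ. Its level was 7.63 and 6.89 CPM *in vivo*, 93.7 and 81.9 CPM in 2D, 3.54 and 1.25 CPM in D3 organoids and 0.742 and 0.788 CPM in D7 organoids. The 4 groups did not overlap and stood in the same order as for *Lats2*, with 6 and 4 counts left in the D7 libraries. *Ccn1* rose 12.1-fold in 2D over *in vivo* TECs (log2 3.60, SE 0.30, edgeR adjusted p = 3.1e-08), fell 3.11-fold at D3 (log2 -1.63, SE 0.38, edgeR adjusted p = 0.0032) and fell 9.31-fold at D7 (log2 -3.22, SE 0.46, edgeR adjusted p = 3.8e-05). The fall at D3 was -0.96 (adjusted p = 0.08) without D3 replicate 2 and -2.51 (adjusted p = 0.00083) without D3 replicate 1 by edgeR. From D3 to D7 it fell by 1.58 (SE 0.55, edgeR adjusted p = 0.049), a call that was lost when D3 replicate 1 (-0.71, adjusted p = 0.52), either D7 library (-1.53 and -1.61, adjusted p = 0.2 and 0.16) or either 2D library (-1.59 in both, adjusted p = 0.071 and 0.068) was left out.

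*Ccn2* (chr10:24471333-24474900, plus strand), the gene of the secreted factor CTGF and the one with 3 motif copies in the sequences above, had the largest fitted change in 2D among those of the 10 genes with counts *in vivo*. It was at 0.347 and 1.41 CPM *in vivo*, 303 and 227 CPM in 2D, 4.55 and 3.48 CPM in D3 organoids and 0.989 and 0 CPM in D7 organoids. In counts, the 2D libraries held 1674 and 1225, against 2 and 10 *in vivo*, 27 and 25 at D3 and 8 and 0 at D7. *Ccn2* rose 280.2-fold in 2D over *in vivo* TECs (log2 8.13, SE 0.40, edgeR adjusted p = 6.7e-11) and was 66.3-fold higher in 2D than in D3 organoids.

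At D3, *Ccn2* rose 4.23-fold over *in vivo* TECs (log2 2.08, SE 0.55, edgeR adjusted p = 0.0088), whereas *Ccn1* fell. The call did not pass by limma-voom (log2 2.25, adjusted p = 0.091) or by DESeq2 (log2 2.18, adjusted p = 0.056), and by edgeR it was 1.48 (adjusted p = 0.081) without *in vivo* replicate 1, 1.89 (adjusted p = 0.066) without D3 replicate 1 and 3.46 (adjusted p = 0.0072) without *in vivo* replicate 2. From D3 to D7 it fell by 2.69 on the log2 scale (SE 0.60, edgeR adjusted p = 0.0044), while limma-voom gave -3.37 (adjusted p = 0.066). D7 replicate 2 had 0 counts, so without D7 replicate 1 no fold of D7 organoids can be given. The difference between D7 organoids and *in vivo* TECs, -0.61 (SE 0.80, adjusted p = 0.6 by edgeR), was not detectable at this depth.

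*Ankrd1* (chr19:36089352-36097506, minus strand) encodes CARP, a nuclear ankyrin-repeat protein that is induced by stretch in muscle. It had 0 counts in both *in vivo* libraries, 1538 and 1364 in 2D, 23 and 4 in D3 organoids and 7 and 9 in D7 organoids. The 2D libraries stood at 279 and 253 CPM, and the 4 organoid libraries lay between 0.557 and 3.87 CPM. With 3 counts per *in vivo* library as the floor, *Ankrd1* was at least 564-fold higher in 2D than *in vivo* (edgeR adjusted p = 2.1e-10), at least 4.70-fold higher at D3 (edgeR adjusted p = 0.0032) and at least 2.80-fold higher at D7 (edgeR adjusted p = 0.014). These bounds use group means, and D3 replicate 2, with 4 counts at 0.557 CPM, lay close to the floor. The D7 call was lost without either *in vivo* library (adjusted p = 0.056 and 0.063 by edgeR) or D7 replicate 2 (adjusted p = 0.051). Between 2D and D3 organoids the fold was 126, and between D7 and D3 organoids the difference of -0.76 (SE 0.64) had an adjusted p of 0.45 by edgeR and became 1.11 without D3 replicate 1 and -1.71 (adjusted p = 0.027) without D3 replicate 2.

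*Crim1* (chr17:78507601-78684021, plus strand), which encodes a membrane protein that binds BMP ligands, was highest in organoids. It was at 32.6 and 38.9 CPM *in vivo*, 41.2 and 28.9 CPM in 2D, 62.8 and 53.6 CPM in D3 organoids and 58.3 and 57.3 CPM in D7 organoids. All 4 organoid libraries lay above the 4 others, which overlapped. *Crim1* rose 1.62-fold at D3 (log2 0.70, SE 0.21, edgeR adjusted p = 0.018) and 1.61-fold at D7 over *in vivo* TECs (log2 0.69, SE 0.21, edgeR adjusted p = 0.016), and 2D differed from *in vivo* by -0.03 (SE 0.21, adjusted p = 0.92 by edgeR).

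The *Crim1* calls were sensitive to single libraries. At D3 the value was 0.57 (adjusted p = 0.11) without *in vivo* replicate 1 and 0.58 (adjusted p = 0.12) without D3 replicate 1 by edgeR. At D7 it was 0.56 (adjusted p = 0.11) without *in vivo* replicate 1 and 0.68 and 0.71 (adjusted p = 0.066 and 0.06) without either D7 library. Against 2D, the log2 differences of -0.73 from D3 and -0.72 from D7 organoids became -0.49 and -0.48 (adjusted p = 0.14 for both) without 2D replicate 2, and the former was -0.61 (adjusted p = 0.08) without D3 replicate 1. The last kilobase of *Crim1* overlaps *Fez2* on the other strand, which had up to 210 counts in a library, and the strand used in counting is not given in the sources used here.

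**Figure D2:**
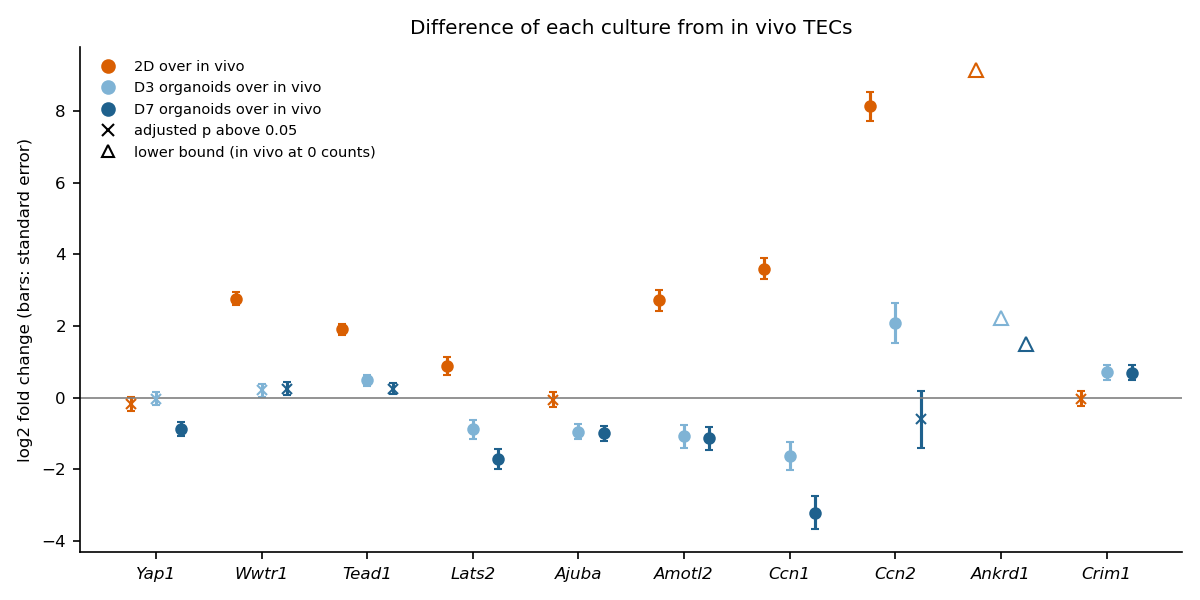
Log2 fold change of the 10 genes in 2D-cultured TECs, D3 organoids and D7 organoids over *in vivo* TECs, with a standard error derived from the edgeR test as bars. Crosses mark an adjusted p above 0.05, and triangles mark lower bounds for *Ankrd1*, which had 0 counts *in vivo*. From *Lats2* to *Ccn1*, 2D lies at or above 0 except for *Ajuba* (-0.06) while both organoid days lie below 0, from -0.89 to -3.22.

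The upstream kinases and their adaptors were described from a list of 17 genes, all tested. In 2D against *in vivo* TECs 7 rose and 4 fell, with a median of 0.24, where 19.9% of all genes rose and 21.7% fell. In D3 organoids 6 rose and 1 fell, beside 14.1% and 14.0% of all genes, and in D7 organoids 5 rose and 4 fell, beside 18.0% and 16.8%. *Wwc1* and *Wwc2*, the genes of the KIBRA scaffolds that help activate LATS, rose 4.20-fold and 4.17-fold in 2D (edgeR adjusted p = 5.7e-08 and 3.2e-08), and *Wwc1* also rose 2.26-fold at D3 and 3.41-fold at D7. *Map4k4*, a kinase that acts on LATS in parallel to MST, rose 3.67-fold in 2D and 1.78-fold at D3 (edgeR adjusted p = 1.4e-07 and 0.0014). The largest called falls of this list in 2D were those of *Fat4* and *Dchs1* (-4.17 and -2.82, edgeR adjusted p = 0.0014 and 0.027). Each had 4 and 0 counts in the 2D libraries. *Dchs1* rose by 1.98 at D7 (edgeR adjusted p = 0.033). Both *Dchs1* calls were lost with single libraries left out, and the 2D call by limma-voom. *Taok3*, a kinase upstream of MST, fell in all 3 cultures, by 1.80, 3.01 and 1.66 on the log2 scale in 2D, D3 and D7 (edgeR adjusted p = 3.1e-07, 2.3e-09 and 1.5e-06). *Taok2* fell by 0.78 in 2D and rose by 1.06 at D3 and 1.44 at D7, and the 2D value was -0.57 (adjusted p = 0.11 by edgeR) without 2D replicate 1.

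For the MST kinases themselves no difference from *in vivo* was called. *Stk3* (MST2) was at 68.5 and 43.9 CPM *in vivo* and 52.8 and 66.3 CPM in 2D, and *Stk4* (MST1) was at 70.3 and 45.6 CPM *in vivo* and 68.7 and 68.2 CPM in 2D. The adaptor *Sav1* fell by 1.02 at D7 against *in vivo* TECs (edgeR adjusted p = 0.0098), a value that was -0.65 (adjusted p = 0.14) without D7 replicate 2 and -1.61 without D7 replicate 1. Of the list's calls over *in vivo*, 5 of 11 in 2D, 5 of 7 at D3 and 3 of 9 at D7 held with each library left out in turn.

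Among 10 tested paralogs and TEAD cofactors of a list of 12, 7 rose and 1 fell in 2D against *in vivo* TECs, with a median of 1.18, where 19.9% of all genes rose and 21.7% fell. At D3 4 rose and 1 fell, beside 14.1% and 14.0% of all genes, and at D7 4 rose and 1 fell, beside 18.0% and 16.8%. With each library left out in turn, 6 of 8 of these calls held in 2D, 3 of 5 at D3 and 1 of 5 at D7. *Tead2* was at 15.6 and 25.9 CPM *in vivo* and 106 and 114 CPM in 2D, and it rose by 2.40 on the log2 scale in 2D and 1.05 at D3 (edgeR adjusted p = 4e-07 and 0.0032). Its rise at D7, 0.87, was 0.55 (adjusted p = 0.13 by edgeR) without *in vivo* replicate 1 and 0.77 (adjusted p = 0.063) without D7 replicate 2. *Tead3* differed from *in vivo* by -0.37 in 2D, -0.69 at D3 and 0.31 at D7, none past the threshold, and *Tead4*, which is among the 7 that rose in 2D, had 1 and 0 counts *in vivo* and lay between 0 and 3.81 CPM in all libraries, and its call was lost without *in vivo* replicate 2 (adjusted p = 0.051 by edgeR).

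The other angiomotins rose with culture of either kind. *Amot* was at 40.4 and 37.8 CPM *in vivo*, 105 and 131 CPM in 2D, 72.6 and 89.9 CPM in D3 organoids and 63.1 and 66.8 CPM in D7 organoids, and rose by 1.59, 1.06 and 0.73 on the log2 scale (edgeR adjusted p = 2.3e-06, 0.00031 and 0.0056). *Amotl1* rose by 1.07, 0.91 and 0.41 (edgeR adjusted p = 6.6e-06, 6.7e-05 and 0.025), where the D7 call was lost without *in vivo* replicate 1 or either D7 library (0.32, 0.36 and 0.47). The organoid groups thus lay above *in vivo* for *Amot* and *Amotl1* and below it for *Amotl2*.

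*Vgll3* and *Vgll4*, which encode vestigial-like proteins that bind TEADs in place of YAP, moved in opposite directions in 2D. *Vgll3* was at 2.26 and 2.67 CPM *in vivo*, 52.0 and 42.4 CPM in 2D, 6.40 and 5.85 CPM in D3 organoids and 0.742 and 1.58 CPM in D7 organoids, and it rose 18.9-fold in 2D (edgeR adjusted p = 3e-08). *Vgll4*, which represses YAP targets, was at 94.7 and 106 CPM *in vivo*, 51.7 and 58.2 CPM in 2D, 87.6 and 71.2 CPM in D3 organoids and 141 and 167 CPM in D7 organoids. It fell by 0.87 in 2D (edgeR adjusted p = 0.00071) and rose by 0.61 at D7 (edgeR adjusted p = 0.01), the latter 0.52 (adjusted p = 0.084) without *in vivo* replicate 1 and 0.50 (adjusted p = 0.11) without D7 replicate 2. From D3 to D7 *Vgll4* rose by 0.96 (edgeR adjusted p = 0.00098) and *Vgll3* fell by 2.47 (edgeR adjusted p = 0.00072).

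*Lats1* rose by 0.55 in 2D (edgeR adjusted p = 0.018) and lost the call with any of the *in vivo* or 2D libraries left out (0.53 to 0.58) or with no scaling beyond library size (0.37, adjusted p = 0.11). *Wtip*, a paralog of *Ajuba*, rose by 1.29 in 2D (edgeR adjusted p = 0.00015). *Limd1*, the third of these LIM genes, differed by 0.03 in 2D. It fell by 0.51 at D3 and 0.68 at D7 (edgeR adjusted p = 0.04 and 0.0061). The D3 call was lost with no scaling beyond library size (-0.42) and without ribosomal RNA genes (-0.43). It was also lost without either *in vivo* library (-0.43 and -0.58) or D3 replicate 2 (-0.28). The D7 call was at the threshold without D7 replicate 2 (-0.65).

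A second list held 16 reported targets, 15 of them tested. In 2D against *in vivo* TECs 10 rose and 2 fell with a median of 1.29, where 19.9% of all genes rose and 21.7% fell. At D3 3 rose and 2 fell with a median of 0.21, beside 14.1% and 14.0% of all genes, so the list was close to the background there. At D7 9 rose and 2 fell with a median of 0.76, beside 18.0% and 16.8% of all genes. *F3*, tissue factor, was at 1.04 and 0.844 CPM *in vivo* and 45.9 CPM in both 2D libraries, a 48.1-fold rise (edgeR adjusted p = 3.9e-09), and rose 4.68-fold at D3 and 4.16-fold at D7. *Myof*, the membrane repair protein myoferlin, rose 4.48-fold in 2D and fell 3.05-fold at D3 (edgeR adjusted p = 6.5e-08 and 8.6e-06), and its difference at D7 was 0.31 (adjusted p = 0.22 by edgeR). *Nuak2* and *Nt5e* rose 12.3-fold and 5.99-fold in 2D (edgeR adjusted p = 0.0018 and 0.00047), from means of 0.802 and 2.06 CPM *in vivo*. *Axl*, a receptor tyrosine kinase, rose in every culture, 3.47-fold at D3 and 3.08-fold at D7 (edgeR adjusted p = 8.9e-06 and 2.7e-05).

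*Igfbp3*, which binds insulin-like growth factors, fell in every culture, from 61.6 and 39.2 CPM *in vivo* to 19.0 and 21.5 CPM in 2D, 4.89 and 1.67 CPM at D3 and 1.86 and 1.77 CPM at D7. The log2 differences were -1.31, -3.97 and -4.77 (edgeR adjusted p = 0.0031, 4e-07 and 1.3e-07), and the 2D value was -0.96 (adjusted p = 0.055) without *in vivo* replicate 1. *Ccdc80*, a matrix protein gene, fell 2.80-fold in 2D (edgeR adjusted p = 2e-06) and rose 1.69-fold at D7 (edgeR adjusted p = 0.0016). *Asap1*, a regulator of Arf GTPases, rose 2.32-fold in 2D (edgeR adjusted p = 1.4e-05) and fell by 0.83 on the log2 scale at D7 (edgeR adjusted p = 0.0011). Of the calls over *in vivo* in this list, 9 of 12 in 2D, 5 of 5 at D3 and 7 of 11 at D7 held with each library left out in turn.

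**Figure D3:**
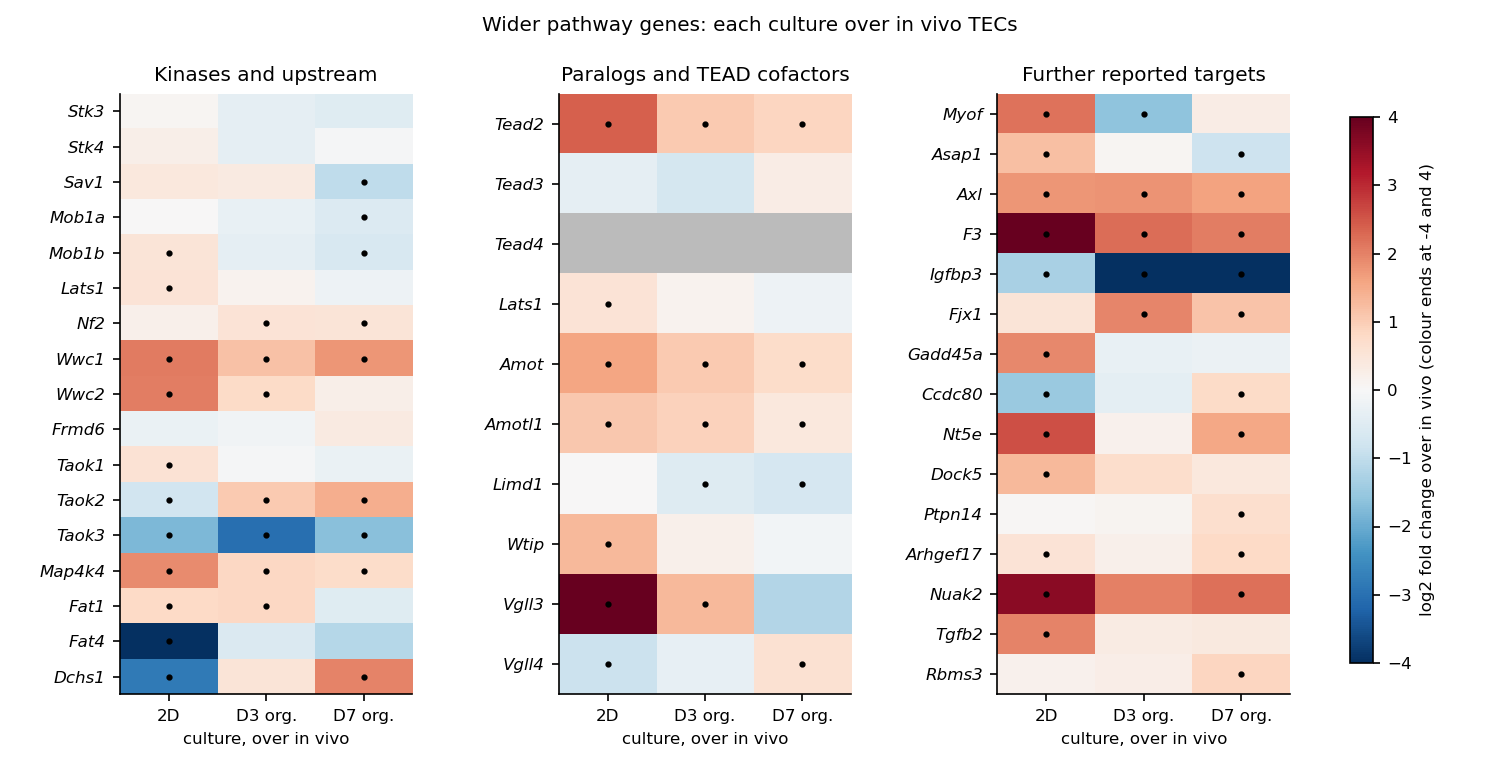
Log2 fold change over *in vivo* TECs, as colour, of the tested genes of 3 wider lists in 2D-cultured TECs, D3 organoids and D7 organoids. Dots mark an adjusted p of at most 0.05 by edgeR, and grey cells (*Tead4*) mark a group with at most 3 counts in both libraries. *Wwc1*, *Amot*, *Axl* and *F3* are higher in all 3 cultures and *Taok3* and *Igfbp3* are lower in all 3.

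Other gene groups were described beside these results. Of 14 actin and contractile genes, 12 were tested. All 12 rose in 2D over *in vivo* TECs, where 19.9% of all genes rose, with a median log2 fold change of 3.37. At D3 5 rose and 2 fell, beside 14.1% and 14.0% of all genes, and at D7 5 rose and 2 fell, beside 18.0% and 16.8%. The summed level of the 14 genes was 9893 to 9919 CPM in 2D, 971 to 1084 CPM *in vivo*, 1260 to 1318 CPM at D3 and 998 to 1006 CPM at D7. *Tpm1*, tropomyosin, rose by 4.84 on the log2 scale in 2D (edgeR adjusted p = 2.7e-12). RNA levels do not measure tension, and the part of tension or of actin genes in the result was not tested.

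The 12 immediate early genes, which respond within minutes to stimulation or tissue digestion, summed to 2807 to 2956 CPM *in vivo*, 689 to 764 CPM in 2D, 155 to 194 CPM at D3 and 198 to 209 CPM at D7. All 12 fell at D3 and at D7 against *in vivo* TECs, beside 14.0% and 16.8% of all genes. In 2D 10 fell and 1 rose, beside 21.7% and 19.9% of all genes. *Ccn1*, *Lats2*, *Amotl2* and *Ajuba* fell in the same organoid comparisons. In 2D, *Ccn1* rose while *Jun* fell by 2.30 (edgeR adjusted p = 9.7e-09). The part of these genes in the result was not tested.

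Of the 10 mesenchyme markers, 6 were tested. The 10 summed to 49.3 to 52.9 CPM *in vivo*, 34.1 to 40.8 CPM in 2D, 22.4 to 27.0 CPM at D3 and 73.5 to 81.4 CPM at D7. *Pdgfra* was at 0 in both *in vivo* libraries, *Twist2* in both 2D libraries, *Pdgfrb* in both D3 libraries and *Prrx1* in both D7 libraries. *In vivo*, *Pdgfrb* had 47 and 30 counts, *Twist2* 7 and 36 and *Prrx1* 9 and 5. In 2D 0 of the 6 rose and 2 fell, *Dcn* and *Lum*, beside 19.9% and 21.7% of all genes. The list's median log2 difference was 0.60, opposite in sign to the change of its sum. *Dcn*, the proteoglycan decorin, took most of the fall in the sum, from a mean of 20.6 CPM *in vivo* to 3.04 CPM in 2D. The collagen genes *Col1a1* and *Col1a2* went from means of 6.20 and 6.16 CPM *in vivo* to 11.3 and 7.77 CPM in 2D (adjusted p = 0.19 and 0.54 by edgeR). At D3 0 rose and 3 fell, beside 14.1% and 14.0% of all genes. At D7 2 rose, *Dcn* and *Lum*, and 1 fell, *Col1a1*, beside 18.0% and 16.8% of all genes. *Dcn* and *Lum* held most of the D7 sum, at means of 52.1 and 11.2 CPM, while *Col1a1* was at 1.33 CPM. The part of mesenchymal RNA in the levels of the 10 genes was not tested. The 8 thymocyte markers, 4 of them tested, summed to 708 and 312 CPM in *in vivo* replicates 1 and 2 and to 3.71 to 13.2 CPM in the cultures. All 4 fell in each culture, beside 21.7%, 14.0% and 16.8% of all genes in 2D, D3 and D7. *Ptcra*, which encodes the pre-T cell receptor alpha chain, was at 0 in all 6 cultured libraries. The 8 endothelium markers summed to at most 9.14 CPM in any library, with *Cdh5* and *Tie1* at 0 throughout. The part of thymocyte RNA in the *in vivo* levels was not tested.

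**Figure D4:**
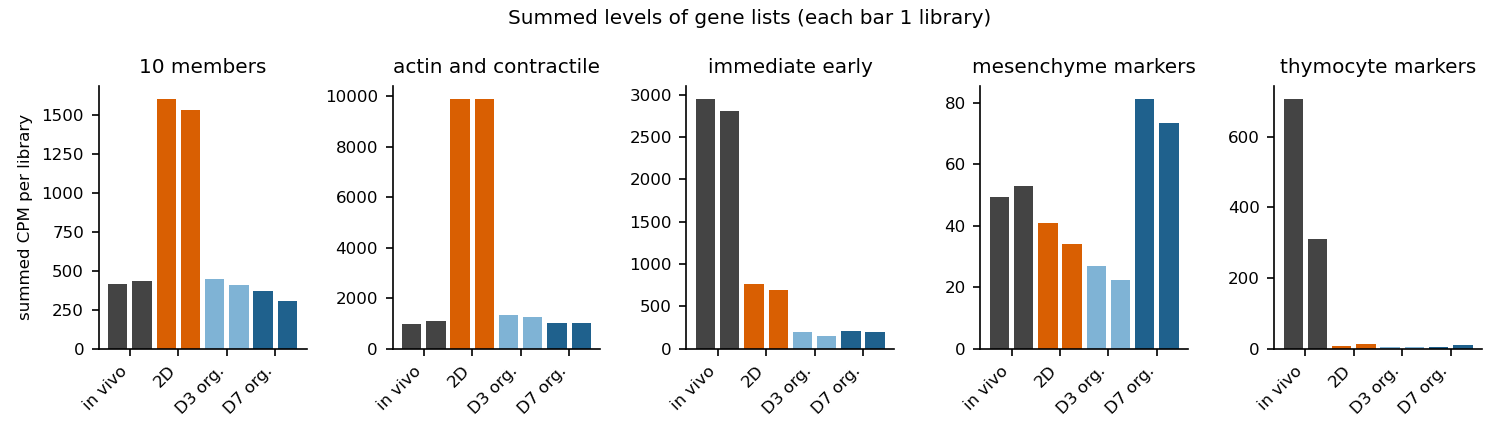
Summed CPM of the 10 genes and of 4 other lists in each of the 8 libraries, 1 bar per library, with a separate linear axis from 0 for each list. The 10 genes sum to 1534 and 1607 CPM in 2D and to between 304 and 447 CPM elsewhere, and the actin list is also highest in 2D. Immediate early and thymocyte sums are highest *in vivo*, and the mesenchyme sum is highest in D7 organoids, mostly through *Dcn*.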

How the data were processed

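From each of the 8 samples, RNA was extracted and turned into a QuantSeq 3′ library, which reads mostly the ends of transcripts. Raw read counts per Ensembl gene, with no normalization, were deposited by the authors, who had used STAR and the GRCm39 assembly for alignment. The annotation release and strand used in counting are not given in the sources used here. Of 56923 identifiers, 56236 were matched to GENCODE symbols. The submitters' processing notes name R 4.1.2, edgeR and limma.

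Counts were analysed in R 4.3.3 with edgeR 4.0.16. A gene was tested if 3 or more libraries held it at 1 CPM or above before TMM scaling (14504 genes). All 6 comparisons came from 1 quasi-likelihood fit of every library after TMM scaling, p-values were adjusted over all tested genes by the Benjamini-Hochberg method, and the threshold was 0.05. Each SE was derived as the absolute log2 fold change divided by the square root of the F statistic of its test. limma-voom 3.58.1 and DESeq2 1.42.0 were alternatives, with other scalings, filters, 6 libraries, a block for replicate number and each library left out. Replicate pairs differed by more than sampling noise (chi-square per degree of freedom 6.82 to 8.70). The procedure was tested on simulated counts. Promoters were read from GRCm39 with Python 3.11.15 and pandas 2.3.3, and figures drawn with matplotlib 3.10.9.

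The members and lists were chosen with earlier results of these data known. All members and paralogs may be named. From the kinase and target lists, named genes come from the up to 4 in each direction with the largest called change. Not all of these are named. From other lists, some of the 3 most abundant genes and of those at 0 are named. *Stk3*, *Stk4*, *Lum*, *Foxn1*, *Psmb11*, *Ly75*, *Epcam* and the further values of *Asap1*, *Ccdc80* and *Myof* were added after they were seen.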

Additional observations from a re-analysis of the deposited data

How the results depend on the processing

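Of 44 called changes of the 10 genes, 40 kept their direction and call in all settings except those with 1 library left out. The settings for these 40 included a fit of 6 libraries, without the D3 organoids. With each library left out as well, 25 held. With a library left out, the number of the 10 genes called ranged from 3 to 8 for D3 organoids over *in vivo* (8 in the full fit), 3 to 7 for D7 organoids over *in vivo* (7) and 1 to 5 for D7 over D3 organoids (3, and 1 by limma-voom). The calls over all genes then ranged from 3048 to 5054 for D7 organoids over *in vivo* and from 1215 to 3418 for D7 over D3 organoids. Ribosomal RNA genes held between 22.7% (D3 replicate 2) and 29.4% (2D replicate 2) of the counts in a library. Some differences that were not called with all libraries changed sign. *Crim1* in 2D over *in vivo* was 0.024 without ribosomal RNA genes and 0.015 with 6 libraries (-0.31 to 0.21 with a library left out). *Yap1* at D3 over *in vivo* was 0.053 with no scaling and 0.043 without ribosomal RNA genes (-0.044 to 0.017). For D7 over D3 organoids, *Wwtr1* was -0.012 without ribosomal RNA genes (-0.10 to 0.19), *Ajuba* 0.012 by limma-voom (-0.37 to 0.29) and *Amotl2* 0.104 by limma-voom (-0.60 to 0.62), and *Ankrd1* ranged from -1.71 (adjusted p = 0.027 by edgeR, without D3 replicate 2) to 1.11 and *Crim1* from -0.19 to 0.11. *Ajuba* in 2D over *in vivo* ranged from -0.20 to 0.10, and *Ccn2* at D7 over *in vivo* reached 0.75. Its lowest fitted value, -5.51, came without D7 replicate 1, where the remaining D7 library had 0 counts, and is not a fold. *Yap1* in 2D over D7 organoids lost its call with no scaling (0.48, adjusted p = 0.068 by edgeR), and *Ccn1* in D7 over D3 organoids by limma-voom (-1.32, adjusted p = 0.33). No scaling moved the median of all genes by -0.178, -0.263 and -0.205 in 2D over *in vivo*, D3 and D7 organoids, and the share of calls that were higher from 47.8%, 49.7% and 46.4% to 37.2%, 32.7% and 34.8%. The labels do not tie replicate numbers to animals, so numbers were not treated as pairs. The difference between replicates 1 and 2 of each group was compared between groups, across genes with a mean of at least 10 CPM. The correlations were 0.08 to 0.23. With 2 libraries per group, they cannot show whether a number marks a shared animal. The replicate block called 7, 8, 7, 9, 10 and 4 of the 10 genes in the 6 comparisons, adding *Lats2* at D7 over D3 organoids (-0.82, adjusted p = 0.043 by edgeR). The cause of these changes was not tested. Depth limits *Ccn1*, *Ccn2* and *Ankrd1* outside 2D, at 0 to 49 counts a library.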

Other observations

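The levels of the 10 genes, as log2(CPM + 1), were also compared over the 8 libraries as a description. The libraries form 4 groups of 2 and the 2D pair lies far from the rest for most of these genes, so each coefficient largely restates that separation. *Wwtr1* followed *Tead1* with a Pearson r of 0.976 and *Ccn1* followed *Amotl2* with an r of 0.979, both over 8 libraries. *Yap1* and *Wwtr1* had an r of 0.116, and *Crim1* had a negative r with each of the 9 other genes. Among 8999 other genes with a mean of at least 10 CPM, those most like *Wwtr1* were *Fgd3*, *Garre1* and *Acta2* (r of 0.995, 0.995 and 0.994), those most like *Ccn2* were *Rtn4*, *Mmp14* and *Serpinb5* (0.997, 0.996 and 0.995), those most like *Ccn1* were *Cdk17*, *Mcl1* and *Rock2* (0.994, 0.994 and 0.992), and those most like *Yap1* were *Yod1*, *Rpl7a* and *Fh1* (0.990, 0.990 and 0.989).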
